A study of Mus musculus with 6 samples.

Results

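Messenger RNA levels of mechanosensitive and other calcium-permeable channels were examined in AML12, a line of hepatocytes derived from the liver of a mouse carrying a transforming growth factor alpha transgene. The set was fixed by name, with earlier results of these data known, and held 10 mouse genes. Of these, 9 had a row among the 23886 Ensembl identifiers analysed. They were Piezo1, Tmem63a, Tmem63b, Trpm4, Trpm7, Trpv4, Pkd2, P2rx4 and Cacnb3, and the tenth, Piezo2, was not analysed here. The study sequenced poly(A) RNA of 6 AML12 samples, Control 2, 3 and 4 from cells left untreated and SMF 1, 2 and 3 from cells treated with a static magnetic field (SMF), all of the same line with no other treatment named. The labels state neither how strong the field was nor how long the cells were exposed. Nothing in the labels says that the samples were separate cultures, so p-values measure the spread between these samples, which may be technical. The series title names calcium influx, and the comparison asks which of these channel genes the cells express and whether their transcript levels differ between SMF and control.

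Mechanosensitive channels open when the membrane is stretched or the cell swells, and several of them let calcium in from outside. The proteins of the Piezo and TMEM63 families form pores that respond to force directly, and members of the transient receptor potential (TRP) family respond to osmotic, chemical and intracellular signals. P2X receptors open on binding extracellular ATP, and voltage-gated calcium channels open on depolarisation. In liver, calcium signals of this kind regulate bile secretion, cell volume and mitochondrial metabolism. Not every gene of the set codes for a calcium-permeable pore. Trpm4 makes a channel that calcium activates but that passes monovalent cations, and Cacnb3 makes an auxiliary subunit with no pore of its own.

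The read totals of the 6 libraries, recovered from the FPKM values and not stated by the labels, were 15514530 to 18200516. The totals of the groups overlapped. The FPKM summed over all genes did not overlap, at 298090 to 300004 in controls and 301951 to 309514 in SMF libraries. Levels are in FPKM (fragments scaled to gene length and sequencing depth), which can be compared between genes. Of 10 hepatocyte markers 7 averaged at least 1 FPKM, among them Hnf4a at 91.6 FPKM and Alb at 29.2 FPKM in controls, while Apoa1, Serpina1a and Fgb averaged under 1 in both groups. Of 5 cholangiocyte markers 4 averaged at least 1 FPKM, with Krt19 at 1063 FPKM in controls, while Epcam averaged 0.00892 FPKM in controls. The line thus carried transcripts from both lists of liver epithelial markers, though not of every marker in either. The 6 fibroblast and stellate markers measured summed to 1.43 to 1.92 FPKM in control and 1.47 to 1.80 FPKM in SMF libraries. Among them Col1a1 averaged 0.975 and Des 0.682 FPKM in controls, while Col1a2 and Dcn were at 0. The 4 endothelial markers measured summed to at most 0.169 FPKM in any library. Of 3 macrophage markers measured, Cd68 and Csf1r averaged 2.57 and 1.19 FPKM in controls and Ptprc 0.00973, and the list summed to 2.99 to 4.33 FPKM in control and 3.40 to 3.73 FPKM in SMF libraries. Whether any cells of these types were present, or bear on the results, was not tested. The summed level of each of the 5 marker lists overlapped between the groups. Most of the hepatocyte sum came from Krt8 and Krt18, at 1921 and 1584 FPKM in controls, so it says little on the other hepatocyte markers.

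Of the 9 channel genes measured, 8 were expressed, taken as at least 1 FPKM in at least 3 of the 6 libraries, and Trpv4 was not. The same filter passed 11114 of all 23886 identifiers, and 20 of 70 genes on a wider list of channel genes described below. Since the set was chosen with earlier results known, its count describes these genes only. Tmem63a and Cacnb3 led, with means over the 6 libraries of 57.8 and 54.9 FPKM, followed by Tmem63b at 31.8, Piezo1 at 11.4, Trpm7 at 9.33, P2rx4 at 6.41, Pkd2 at 3.73 and Trpm4 at 3.25 FPKM. Most neighbours in this order were separate in every library. The exceptions were Tmem63a and Cacnb3, whose ranges overlapped and which stood in that order in 4 of 6 libraries, and Pkd2 and Trpm4, which stood in that order in 5 of 6. Tmem63a, Tmem63b and Cacnb3 together made up 80.2% to 81.5% of the summed FPKM of the channel genes in each library. Tmem63a lay above 92.1% of the 11114 genes that passed the expression filter, Piezo1 above 58.0% and Trpm4 above 22.1%.

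**Figure D1:**
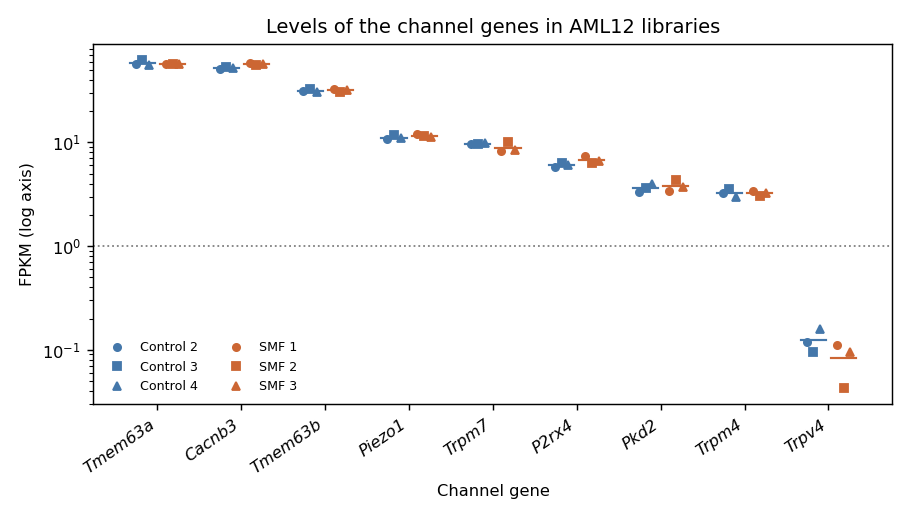
FPKM of the 9 channel genes (log axis), 1 point per library, with control libraries in blue, SMF libraries in orange, a bar at each group mean and a dotted line at 1 FPKM. The 8 genes above the line span 3.25 to 57.8 FPKM on average, and Trpv4 stands alone below it.

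None of the 8 expressed channel genes passed the comparison of SMF with control. The comparison used limma on log2(FPKM + 1) over 11114 genes, where the background was also 0.0%, since no gene of the whole table passed an adjusted p of 0.05. At an unadjusted p under 0.05 there were 1998 genes of the table (18.0%) and 1 of the 8 channel genes, Cacnb3. By limma-voom on reads recovered from the FPKM values, 481 of 10816 genes passed (4.45%), and none of the 8. The log2 fold changes of the 8 ran from -0.12 in Trpm7 to 0.14 in P2rx4, with 5 above 0 and 3 below and a median of 0.03, beside a median of -0.01 over all genes tested. In RNA of a whole culture, fewer cells with a transcript and less of it per cell cannot be told apart. Fold changes are SMF minus control on the log2(FPKM + 1) scale, which understates changes of low genes, and intervals are 95% intervals of 1 gene with no adjustment.

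Tmem63a and Tmem63b code for cation channels related to the plant OSCA family, opened by stretch or by a change in osmolarity. Tmem63a (ENSMUSG00000026519) measured 57.5, 61.9 and 55.6 FPKM in Control 2, 3 and 4 and 56.9, 57.3 and 57.3 FPKM in SMF 1, 2 and 3. The SMF libraries lay within the control range and close together, at an SD of 0.259 FPKM against 3.25 in controls (n = 3 each), with Control 3 the highest library. The log2 fold change was -0.03 (interval -0.13 to 0.07, limma adjusted p = 0.767), which bounds the ratio of FPKM + 1 between 0.914 and 1.05. Tmem63b (ENSMUSG00000036026) measured 31.4, 32.7 and 30.8 FPKM in the control group and 32.7, 30.8 and 32.3 FPKM in SMF libraries. Both groups covered the same range, and the log2 fold change was 0.01 (interval -0.08 to 0.11, limma adjusted p = 0.890). Tmem63a exceeded Tmem63b by 1.74 to 1.89 times in the 6 libraries, and the third family member, Tmem63c, had 0 to 2 reads per library. In the GENCODE M21 annotation 2.08% of the Tmem63b exon length is shared with Mrpl14 and 5.65% with Gm16172, both on the opposite strand. Tmem63a shares 3.5% of its exon length with 2210411M09Rik, also on the opposite strand. The latter averaged 0.174 FPKM in controls and 0.507 FPKM in SMF libraries and did not enter the test. The library kit is not stated to mark strand, so reads in those bases cannot be assigned to one gene. Gm16172 stood at 0.460 ± 0.271 FPKM across controls and 1.81 ± 0.480 across SMF libraries (limma adjusted p = 0.147, limma-voom adjusted p = 0.0271), and Mrpl14 at 46.1 ± 0.385 and 51.1 ± 2.36 FPKM (adjusted p = 0.171).

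Piezo1 (ENSMUSG00000014444) codes for a large trimeric channel opened by membrane tension. It measured 10.7, 11.7 and 11.0 FPKM in Control 2, 3 and 4 and 12.2, 11.4 and 11.3 FPKM in SMF 1, 2 and 3. SMF 1 was the highest library and Control 2 the lowest, and Control 3 lay above SMF 2 and SMF 3, so the groups overlapped. The group means were 11.1 ± 0.513 and 11.7 ± 0.468 FPKM (SD, n = 3), a log2 fold change of 0.06 (interval -0.06 to 0.18, limma adjusted p = 0.558). Each library held 1761 to 2113 Piezo1 reads, so that counting alone gives a coefficient of variation of 2.27%, against 4.61% observed among controls. Of the annotated exon bases of Piezo1, 24.6% are shared with Ctu2, a tRNA-modifying enzyme gene on the opposite strand, the largest such overlap in the set. Ctu2 stood at 7.32 ± 0.109 FPKM in the control group and 7.96 ± 0.0992 in SMF libraries (limma adjusted p = 0.276), and what part of the Piezo1 value comes from Ctu2 transcripts was not tested. Mdfic, which codes for a Piezo-binding protein, measured between 3.52 and 5.00 FPKM and Mdfi, its relative, 0 or 1 read per library.

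Among TRP channels, Trpm7 (ENSMUSG00000027365), a channel fused to a kinase that passes magnesium, calcium and zinc, was uniform among controls and spread among SMF libraries. It measured 9.62, 9.70 and 9.92 FPKM in the control group and 8.21, 10.01 and 8.50 FPKM in SMF 1, 2 and 3. SMF 1 and SMF 3 lay below every control and SMF 2 above every control. The log2 fold change was -0.12 (interval -0.28 to 0.04, limma adjusted p = 0.392), and after correction for GC content and gene length it was -0.01 (adjusted p = 0.976). Trpm7 has the lowest GC content of the 9 genes (40.1%) and the longest exon length (11315 bases). Whether either bears on its fold change was not tested. Its closest relative, Trpm6, was at 1.04 ± 0.353 and 1.16 ± 0.198 FPKM, so Trpm7 exceeded it by 6.77 to 14.2 times.

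Pkd2 (ENSMUSG00000034462) codes for polycystin 2, a cation channel of the primary cilium and endoplasmic reticulum. It measured 3.36, 3.60 and 4.00 FPKM in the control group and 3.38, 4.35 and 3.71 FPKM in SMF 1, 2 and 3. SMF 2 was the highest library, and SMF 1 stood beside the lowest control. The log2 fold change was 0.05 (interval -0.17 to 0.26, limma adjusted p = 0.812). Pkd1, the receptor-like partner of Pkd2, was at 4.79 ± 0.122 FPKM in the control group and 4.72 ± 0.0877 in SMF libraries, and the ratio of Pkd1 to Pkd2 was 1.08 to 1.41. Trpm4 (ENSMUSG00000038260) measured 3.25, 3.57 and 2.94 FPKM in the control group and 3.42, 3.01 and 3.28 FPKM in SMF libraries. All SMF values of Trpm4 lay inside the control range, with a log2 fold change of -0.0036 (interval -0.19 to 0.18, limma adjusted p = 0.985).

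Trpv4 (ENSMUSG00000014158), a channel opened by osmotic swelling and warmth, was close to the limit of detection. It had 8, 7 and 11 reads in Control 2, 3 and 4 and 7, 3 and 7 reads in SMF 1, 2 and 3. In FPKM these were 0.118, 0.0944 and 0.158 against 0.111, 0.0426 and 0.0956, where 3 reads, the limit that a count of 0 allows, are worth 0.0404 to 0.0474 FPKM. The groups overlapped, and the gene did not enter the test. With so few reads a modest difference could not be seen, and how large a difference could be seen was not tested. This limit and the counting errors given for other genes cover counting only.

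In its count of CG dinucleotides the promoter of Trpv4 lay within the wide range, 7 to 35, of the expressed channel genes matched. Trpm4 had no match. RefSeq windows of 300 bases (250 before and 50 after a transcript start, GRCm38.p6) matched 8 of the 10 symbols with 9 windows, and 6 of the 9 held at least 20 CG, the upper quartile of 32851 windows, whose median was 7. The Piezo1 window held 34, that of Trpv4 30, that of P2rx4 18 and that of Pkd2 9. The pair of Cacnb3 windows held 7 and 29, and those of Trpm7, Tmem63b and Tmem63a held 35, 34 and 33. The 250 bases before the start are shown for Piezo1 as an expressed gene, for P2rx4 as the expressed gene with the largest fold change, and for Trpv4, each read 5′ to 3′ on the strand of the gene with every CG in capitals. They lie at chr8:122551330-122551579 (Piezo1, minus strand), chr5:122707294-122707543 (P2rx4, plus strand) and chr5:114658422-114658671 (Trpv4, minus strand) of GRCm38.p6, outside annotated M21 exons.
Piezo1: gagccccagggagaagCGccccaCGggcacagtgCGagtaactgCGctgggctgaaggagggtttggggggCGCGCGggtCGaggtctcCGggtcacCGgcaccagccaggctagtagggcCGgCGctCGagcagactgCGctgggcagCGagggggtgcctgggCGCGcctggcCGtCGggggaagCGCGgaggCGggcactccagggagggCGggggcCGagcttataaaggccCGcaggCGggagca
P2rx4: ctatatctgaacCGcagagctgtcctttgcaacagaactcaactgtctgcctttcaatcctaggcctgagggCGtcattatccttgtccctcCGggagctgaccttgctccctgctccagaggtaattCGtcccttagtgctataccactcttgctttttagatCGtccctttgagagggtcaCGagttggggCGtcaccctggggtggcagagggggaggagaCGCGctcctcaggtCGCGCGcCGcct
Trpv4: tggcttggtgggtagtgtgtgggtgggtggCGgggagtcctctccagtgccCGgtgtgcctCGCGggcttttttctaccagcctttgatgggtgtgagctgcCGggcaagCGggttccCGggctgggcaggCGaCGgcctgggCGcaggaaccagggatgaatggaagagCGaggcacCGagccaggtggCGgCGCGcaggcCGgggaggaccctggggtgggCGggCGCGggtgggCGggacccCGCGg
The letters GGGCGG, on either strand and holding a CG themselves, occur in all 3 of these 300-base windows (for P2rx4 in the 50 bases after the start, not shown) and in 35.7% of all windows. TATAAA, also searched on both strands, occurs in the Piezo1 window, where it can be read in lower case near the end, and in 13.6% of all windows. Such matches describe the letters only.

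P2rx4 (ENSMUSG00000029470) codes for an ATP-gated cation channel of the plasma membrane and lysosome. It measured 5.74, 6.37 and 6.00 FPKM in Control 2, 3 and 4 and 7.39, 6.38 and 6.60 FPKM in SMF 1, 2 and 3. Every SMF library stood above every control, although SMF 2 and Control 3 were nearly equal and a single SMF library, SMF 1, stood well apart. The means were 6.04 ± 0.317 and 6.79 ± 0.527 FPKM, a log2 fold change of 0.14 (interval -0.01 to 0.30, limma adjusted p = 0.3). It was 0.19 after correction for GC content and length (adjusted p = 0.339). P2rx4 made up 84.4% to 90.9% of the summed FPKM of the measured P2X receptor genes, with P2rx6 next at 0.616 ± 0.151 and 0.691 ± 0.161 FPKM.

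Cacnb3 (ENSMUSG00000003352), an auxiliary beta subunit that brings voltage-gated calcium channels to the membrane, had the smallest p of the 8 channel genes. It measured 51.5, 54.0 and 51.8 FPKM in Control 2, 3 and 4 and 59.0, 55.6 and 57.7 FPKM in SMF 1, 2 and 3. Every SMF library stood above every control. The means were 52.4 ± 1.37 and 57.4 ± 1.76 FPKM, a ratio of 1.10 and a log2 fold change of 0.13 (interval 0.04 to 0.22). It did not pass over all genes by limma (unadjusted p = 0.0101, adjusted p = 0.183) or by limma-voom (adjusted p = 0.0769). After correction for GC content and length the log2 fold change was 0.05 (limma adjusted p = 0.548). The correction removes any difference that follows GC content or length, whatever its source. Cacnb3 has the highest GC content of the 9 genes (61.3%), and whether this bears on its fold change was not tested. The ratio of Cacnb3 to Tmem63a within a library, a comparison chosen after the values were seen, was 0.895, 0.872 and 0.931 in controls and 1.04, 0.969 and 1.01 in SMF 1, 2 and 3.

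Transcripts of the voltage-gated calcium channel pore genes were far lower. Cacnb3 made up 98.1% to 98.7% of the summed FPKM of the beta subunit genes in each library. The 9 pore subunit genes with a row summed to 3.25 to 3.70 FPKM, so that Cacnb3 exceeded them together by 14.7 to 16.0 times. That sum takes in T-type genes and is not limited to pores that pair with a beta subunit. Of these 9, the pore genes Cacna1a, of P/Q-type channels, and Cacna1g, of T-type channels, passed the expression filter, at 1.85 ± 0.233 and 1.55 ± 0.204 FPKM in the control group and 1.98 ± 0.151 and 1.63 ± 0.173 in SMF libraries. The alpha2delta subunit gene Cacna2d1 was at 4.46 ± 0.252 and 3.91 ± 0.329 FPKM, with a log2 fold change of -0.15 (interval -0.32 to 0.01, limma adjusted p = 0.310) that became -0.04 when corrected for GC content and length.

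**Figure D2:**
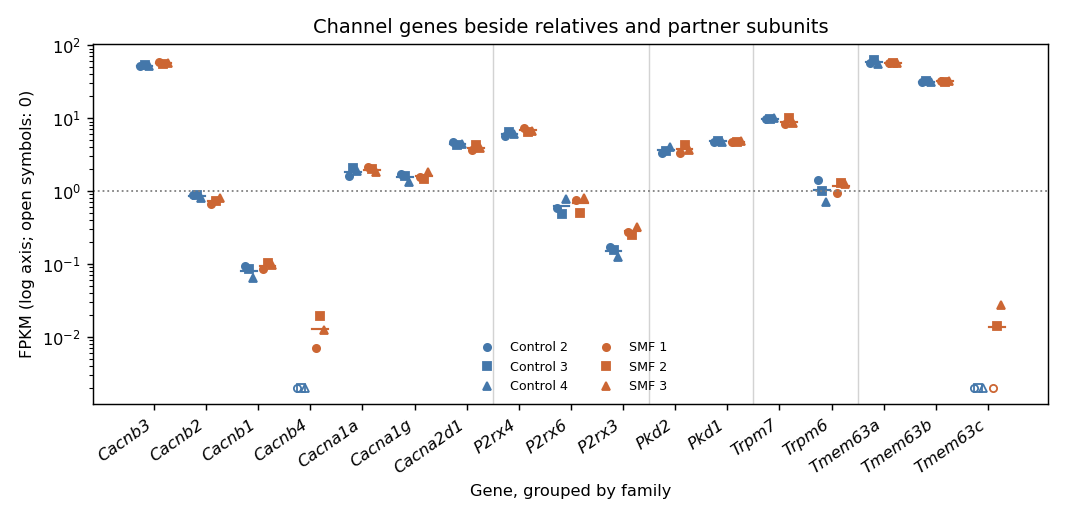
FPKM (log axis) of channel genes beside members of their families and partner subunits, 1 point per library, control in blue and SMF in orange, with bars at group means and open symbols for 0. Within the voltage-gated group at the left, Cacnb3 stands at 51.5 to 59.0 FPKM, while the other beta and pore subunit genes are at or below 2.11 FPKM.

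The groups did not overlap for 2 of the 8 channel genes, P2rx4 and Cacnb3, both with SMF above control. Over all genes tested, 11.0% stood wholly above control and 12.7% wholly below. No single library was extreme throughout. Control 2 was the lowest library for 4 of the 8, Piezo1, Pkd2, P2rx4 and Cacnb3. SMF 1 was the highest for Piezo1, P2rx4 and Cacnb3 and the lowest for Trpm7, Control 3 was the highest for Tmem63a, Tmem63b and Trpm4, and SMF 2 the highest for Trpm7 and Pkd2.

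**Figure D3:**
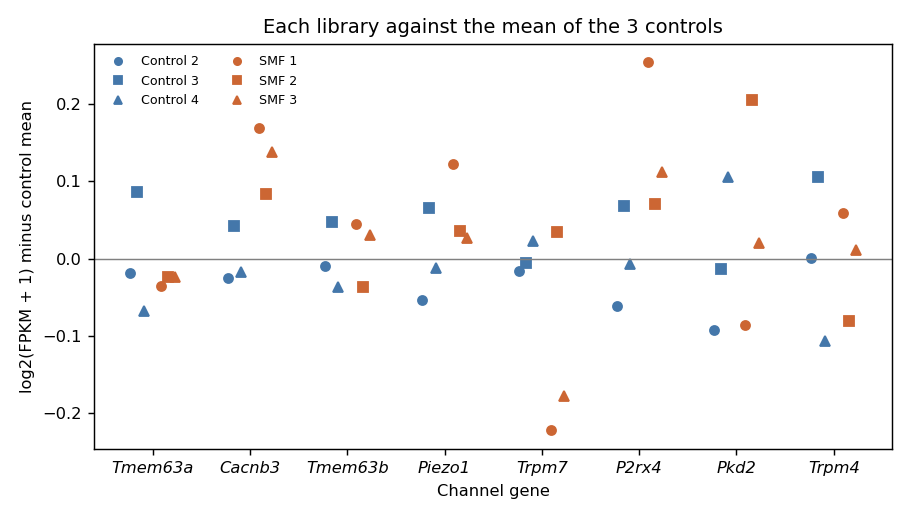
Each library's log2(FPKM + 1) minus the mean of the 3 controls for the 8 expressed channel genes, with controls in blue, SMF libraries in orange and symbols by replicate number. All 3 SMF points of Cacnb3 and P2rx4 lie above their controls, and those of Trpm7 lie on both sides.

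The channel genes are long, with a median exon length of 8480 bases for the 8 expressed against 4209 bases over all genes tested. With the GC and length trends of each library removed, 4 of the 8 had a log2 fold change above 0 and the median was 0.02, beside 0.03 as deposited. Across all alternatives run, the median of the channel genes ranged from 0.0012 under TPM to 0.049 under quantile normalization. The GC content and length correction brought Cacnb3, Trpm7 and Piezo1 (0.04) nearer to 0. It took P2rx4, Pkd2 (0.10) and Tmem63a (-0.06) further from 0 and turned Tmem63b to -0.03, and again no gene passed.

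**Figure D4:**
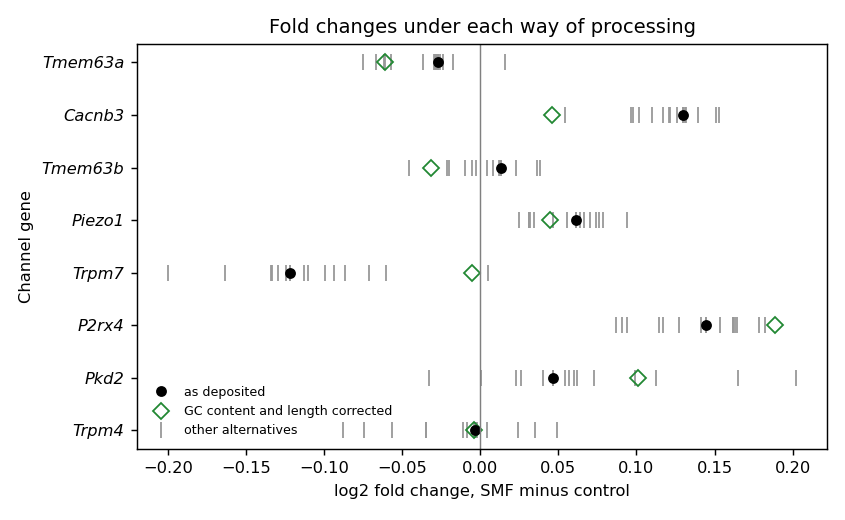
Log2 fold change of the 8 expressed channel genes as deposited (black), after correction for GC content and gene length (green diamonds) and under each other alternative (grey ticks). Cacnb3, P2rx4 and Piezo1 stay above 0 throughout, and the corrected values of Cacnb3 and Trpm7 lie nearer 0 than those as deposited.

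Counting error was smaller than the spread between libraries for most of the set. Expected from reads alone, the coefficient of variation was 1.5% for Tmem63a, 3.61% for P2rx4 and 4.08% for Trpm4, against 5.56%, 5.24% and 9.57% observed in controls. For Trpm7 the controls varied by 1.55%, less than the 2.35% expected from counting, and the SMF libraries by 10.8%. The SMF libraries of Tmem63a varied by 0.452%, also less than counting alone gives.

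Another 90 genes of the same families, their subunits and proposed partners were listed, of which 70 had a row and 20 passed the expression filter. No gene among these 20 passed when p was adjusted across the whole table. By unadjusted p there were 3 of 20 under 0.05 (Mcoln1, Tpcn1 and Lrrc8b), a share no higher than the 18.0% of all genes tested. The median log2 fold change was -0.03, with 8 above 0 and 12 below. Groups did not overlap for 2 of 20 above control, Mcoln1 and Tpcn1, and 2 of 20 below, Lrrc8b and Tpcn2, near the 11.0% and 12.7% of all genes tested.

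Mcoln1, which codes for the lysosomal calcium channel TRPML1, measured 15.8, 15.9 and 15.8 FPKM in the control group and 17.9, 16.4 and 17.1 FPKM in SMF libraries. Its log2 fold change was 0.11 (limma adjusted p = 0.265) and, when corrected for GC content and length, 0.14. Tpcn1, a two-pore channel of endosomes, stood at 24.4 ± 0.543 and 26.0 ± 0.15 FPKM (log2 fold change 0.09, limma adjusted p = 0.266), and Tpcn2, its lysosomal relative, at 4.01 ± 0.0403 and 3.88 ± 0.0603.

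Trpa1, a calcium-permeable channel opened by reactive chemicals, stood above Trpm4, Trpm7, Trpv4 and Pkd2 in each library and had a mean close to that of Mcoln1. It measured 15.6, 17.8 and 19.8 FPKM in the control group and 14.9, 17.8 and 17.0 FPKM in SMF libraries, with overlapping groups (log2 fold change -0.09, limma adjusted p = 0.624). Among proposed mechanosensitive proteins, Tmem120a was at 25.5 ± 2.72 and 26.0 ± 1.86 FPKM, Tmc6 at 13.6 ± 0.850 and 14.2 ± 0.307, and Tmem87a at 7.07 ± 0.381 and 6.85 ± 0.272. Lrrc8b, a subunit of the volume-regulated anion channel, was named after its values were seen, since it had the largest fold change of the wider list. It measured 6.96, 7.16 and 6.89 FPKM in the control group and 5.48, 5.89 and 5.69 FPKM in SMF libraries, and every SMF library lay below every control. Its log2 fold change was -0.26 (interval -0.38 to -0.14, limma adjusted p = 0.147). By limma-voom it passed (adjusted p = 0.0192) as 1 of 19 genes of the wider list tested that way, near the 4.45% of all genes. The correction for GC content and length gave a log2 fold change of -0.19 by limma (adjusted p = 0.240).

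**Figure D5:**
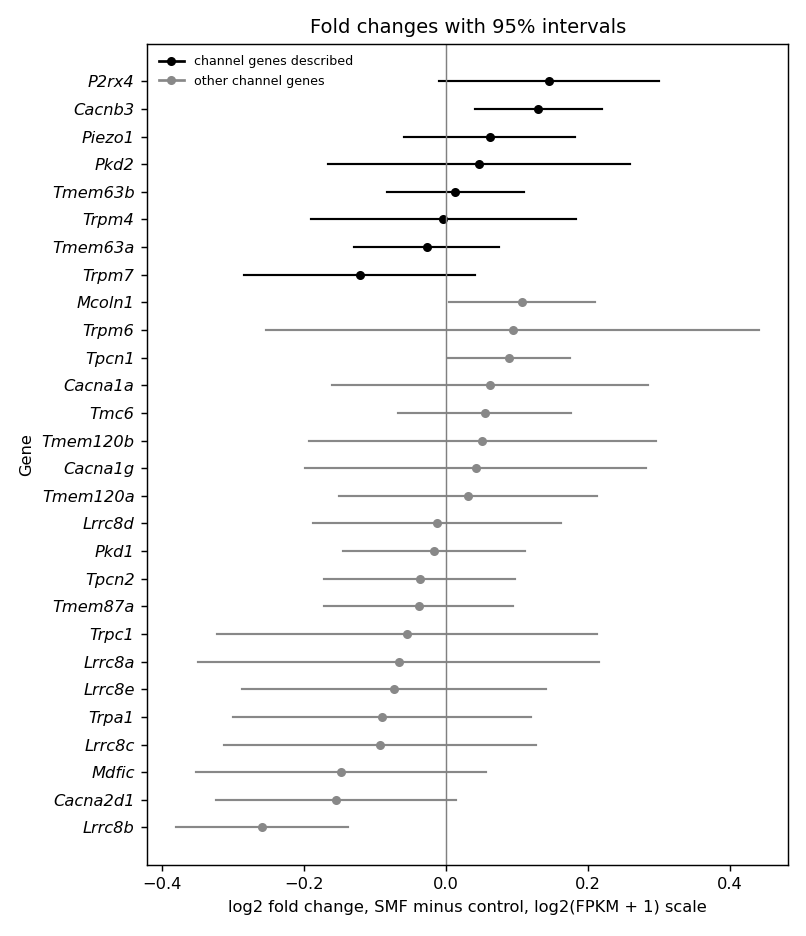
Log2 fold change, SMF minus control, on the log2(FPKM + 1) scale with unadjusted 95% intervals for the 8 channel genes (black) and 20 others of the same families (grey). The intervals of Cacnb3, Mcoln1, Tpcn1 and Lrrc8b exclude 0 before adjustment, and none of the 28 genes passes over all genes.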

How the data were processed

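RNA sequencing of poly(A)-selected RNA from 6 AML12 samples was analysed, 3 control and 3 SMF, grouped by their titles. The authors deposited FPKM, 1 file per library. Per the submitters' processing notes, the build was GRCm39 and the tools included Bowtie2 2.2.3 and HISAT2 2.1.0, whose roles are not stated. The labels do not state how overlapping or multiply mapping reads were counted, nor on which annotation, so values of overlapping genes are uncertain. Symbols came from a GENCODE table, which named 23521 of 23886 identifiers.

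FPKM values were whole multiples of 1 read at M21 exon length (GRCm38, used for lengths and GC content of the longest transcript) for 97.99% to 98.04% of values per library, within 0.02 reads, which gave the library totals. Genes with at least 1 FPKM in at least 3 of 6 libraries (11114) were tested two-sided on log2(FPKM + 1) by limma (version 3.58.1, R 4.3.3), whose variance prior followed the mean level, with Benjamini-Hochberg adjustment over all of them and a threshold of 0.05. limma-voom ran on the recovered reads of 10816 genes. The GC content and length correction was a loess within each library (span 0.3) and covered 99.47% of tested genes. Both tests were also run on simulated data, whose outcome is not reported here, and no result above rests on it. The 10 channel genes and the lists were chosen with earlier results of these data known. Named from the wider list were, in each role group, the 3 highest by mean FPKM among those tested, or where none was tested the highest, and any that passed. Lrrc8b, Mdfic, Mdfi, Ctu2, Mrpl14, Gm16172, 2210411M09Rik and the unexpressed relatives were named outside this rule, after their values were seen. Figures were drawn with matplotlib 3.10.9.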

Additional observations from a re-analysis of the deposited data

How the results depend on the processing

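No channel gene of the set passed under any alternative run, and the number expressed was 8 at a minimum of 0.5 FPKM and 6 at 5 FPKM. Over all genes, calls numbered 8 with a filter at 5 FPKM, 481 by limma-voom, 0 to 3 with any 1 library left out, 19 with a replicate block and 17 with the block and the GC content and length correction. Of the wider list 1 gene, Lrrc8b, passed by limma-voom, as did Gm16172 outside it. Only numbers 2 and 3 are shared by the groups, and same-numbered libraries deviated with correlations of 0.058 and 0.046, so the numbers did not show pairing; the block leaves 1 residual degree of freedom among samples before shrinkage.

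Signs were followed for 25 tested genes, the named channel genes, partners and overlapping genes, without the cell type markers. Of these, 11 kept their sign throughout, among them Piezo1, P2rx4 and Cacnb3. Another 14 changed it at least once, with no changed sign past the threshold, and the cause was not tested. With the correction, log2 fold changes of the other sign were -0.032 for Tmem63b, 0.072 for Tmem87a, -0.071 for Tmem120a, -0.012 for Tmc6 and 0.0057 for Pkd1. With the replicate block they were -0.021 for Tmem63b, -0.084 for Tmem120a, 0.060 for Trpa1 and -0.011 for Cacna1g. With block and correction together they were -0.046 for Tmem63b, 0.0051 for Trpm7, 0.030 for Tmem87a, 0.032 for Mdfic, -0.15 for Tmem120a, 0.095 for Trpa1, 0.015 for Pkd1 and -0.0031 for Cacna1g. Under TPM, Tmem63b was at -0.020 and Tmem120a at -0.0014. Under quantile normalization Tmem63b was at -0.010, Trpm4 at 0.024 and Pkd1 at 0.019, and under median-of-ratios scaling Trpm4 was at 0.0041. With 1 library left out, values ran from -0.061 to 0.015 for Tmem63a, from -0.0054 to 0.038 for Tmem63b, from -0.057 to 0.049 for Trpm4, from -0.033 to 0.11 for Pkd2, from -0.067 to 0.00011 for Tmem87a, from -0.030 to 0.11 for Tmem120a, from -0.031 to 0.22 for Trpm6, from -0.029 to 0.00048 for Pkd1, from -0.0018 to 0.12 for Cacna1a and from -0.022 to 0.093 for Cacna1g. Depth limits Trpv4 and the untested relatives.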

Other observations

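Of the wider list of channel genes, 50 with a row did not pass the expression filter. The highest were Cacnb2 at 0.860 ± 0.0377 FPKM (controls) and 0.735 ± 0.0642 FPKM (SMF), Tmc8 at up to 1.16 FPKM in a library, P2rx6 at up to 0.808 and Tmc4 at up to 0.559. A further 12 peaked between 0.1 and 0.5 FPKM and 34 below 0.1 FPKM. Of the 34, the channels Trpv5, Trpv6, P2rx1, Cacna1d, Cacna1h and Tmc7 had 0 reads in all 6 libraries. A count of 0 allows up to 3 reads in a library, worth at most 0.0737 FPKM for P2rx1 and 0.0153 FPKM for Cacna1d. Trpv2, a channel of macrophages and muscle, had 0 to 3 reads, and P2rx7, the ATP receptor of inflammatory cells, 0 to 3 reads.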
